A study of Gallus gallus with 12 samples.

Results

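Genes for ion channels and gap junctions were examined in RNA sequencing libraries from the skin of chicken embryos. They were the 110 rows, of 12297 in the deposited table, whose gene symbol names a potassium channel (KCN), voltage-gated sodium channel (SCN), voltage-gated calcium channel (CACN), transient receptor potential channel (TRPC, TRPM or TRPV), CLCN or anoctamin chloride channel (CLCN or ANO), connexin (GJ), pannexin (PANX) or hyperpolarization-activated channel (HCN). The 110 rows carried 110 different symbols. By ion, 48 were potassium channel genes, 15 calcium, 14 TRP, 12 chloride, 10 sodium, 10 connexin or pannexin and 1 HCN. The embryos were untreated White Leghorns. Scale-forming skin came from the tarsometatarsus, the lower leg, at embryonic day 11 (E11, Hamburger-Hamilton stage 37) and E9 (stage 35). Feather-forming skin came from the wing, the thigh and the back (dorsal) at E9 (stage 35), and from the back also at E7 (stage 31). There were 6 groups and 12 libraries, 2 for each group. Sample titles call the material dermis and tissue labels call it skin. Nothing says whether the libraries of a group came from separate embryos, so p-values measure only the spread between these libraries, which may be technical.

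Ion channels set the voltage across the cell membrane and let calcium in as a signal. Potassium channels and leak channels hold the voltage negative, sodium and calcium channels let it rise, and accessory subunits change how often a pore opens or how many pores reach the surface. Gap junctions, built from connexins, join the cytoplasm of neighbouring cells so that ions and small molecules pass between them, while pannexins mostly form pores to the outside. In feather buds of the chicken, calcium oscillations in dermal cells and their coupling through connexin gene GJA1 have been linked to bud elongation. In zebrafish, mutations in potassium channel and connexin genes alter fin length and pigment pattern. The roles named for single genes below are those known in mammals unless another animal is named.

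Levels are CPM, reads scaled to an effective library size, and are not corrected for transcript length, so they were compared between libraries for 1 gene and never between genes. In 11 libraries whose whole reads could be recovered, 13164609 to 20641981 reads fell on rows of the table, and 3 reads, the limit that a count of 0 allows, came to 0.143 to 0.221 CPM, for counting error only. The depth of thigh replicate 2 is not given, since that library did not pass a check for whole reads at low values. Differences are given as log2 fold changes of CPM + 1 with standard errors from a limma fit over all 12277 rows tested, so that changes of genes at a few CPM are understated. A gene is called where its Benjamini-Hochberg adjusted p over all rows was under 0.05. Of the 110 genes 109 were tested, and SCN4A, at 0.14 to 1.03 CPM in every library, was not. A group mean of at least 5 CPM in some group was reached by 74 of the 110 (67.3%), against 85.2% of all rows, and the other 36 stayed below it. Genes at very low CPM everywhere are absent from the table, so a gene at low CPM stands in it only through the group where it is high.

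Some library features touch the results. Both dorsal E9 libraries had 0.15 to 0.26 CPM of the W-linked rows HINTW (ENSGALT00000036310.2) and SPINW. Each of the other 10 libraries had at least 17.0 CPM of both rows. In differences that involve dorsal E9, the part of this was not tested and cannot be told apart from the group. Thigh replicate 2 had 12.9% of its signal in 12 mitochondrial transcripts, against 3.24% to 4.75% in the others, and the thigh libraries were the least alike pair (Spearman 0.970 across genes, against 0.987 to 0.996). Marker genes of other cell types were present in every group. In bulk skin, fewer cells of a type and less RNA per cell cannot be told apart.

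The median range of group means was 1.41 on the log2 scale over the 110 genes and 0.75 over all rows. These sets were not matched for level, and fewer channel genes (67.3%) than rows of the table (85.2%) reached 5 CPM in some group. The wider range is therefore not read as a property of channel genes. Dorsal E9 skin was the group with the highest mean for 33 of the 110 genes (30%, against 20.9% of all rows). Thigh E9 followed with 19, fewer than its share (17.3%, against 25.1% of all rows). Scale E11 had 17 (15.5%, against 14.8%) and scale E9 had 16 (14.5%, against 11.8%). Wing E9 had 14 (12.7%, against 13.9%) and dorsal E7 had 11 (10%, against 13.5%). For 22 genes (20%, against 8.90% of all rows) both dorsal E9 libraries stood above all 10 other libraries. This was not particular to the back. Scale E9 skin had 8 genes above all other libraries (7.27%, against 2.99%) and 10 below them (9.09%, against 3.13%). In any of the 6 groups, 64 genes stood above all other libraries (58.2%, against 34.3% of all rows). In at least 1 of the 3 main comparisons described next, 61 of 109 genes were called (56%), against 30% of all rows.

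**Figure D1:**
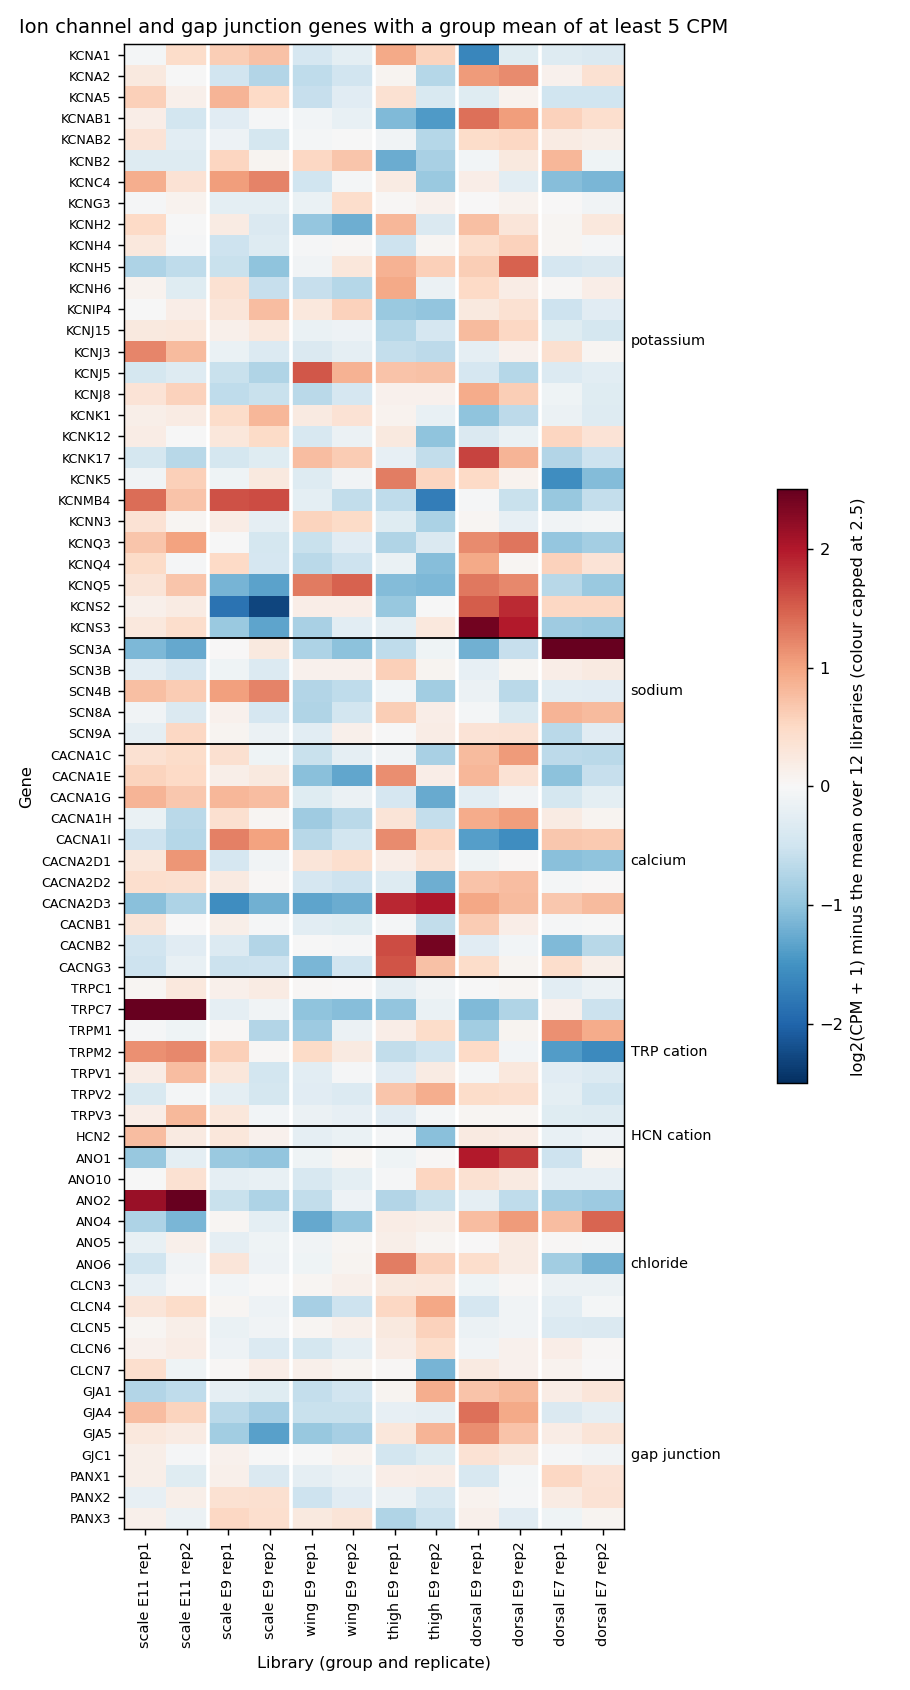
Heat map of 70 ion channel and gap junction genes with a group mean of at least 5 CPM, with genes grouped by ion down the page and the 12 libraries in 6 groups across it. Colour is log2(CPM + 1) minus the gene's mean over the 12 libraries, with the scale capped at 2.5. Dorsal E9 had the highest mean for 33 of all 110 genes (30%, against 20.9% of all rows).

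Scale skin was first set against feather skin at the same age, E9, to ask which channel genes differed between the places where the appendages form. Against the mean of wing, thigh and dorsal skin, 35 of 109 genes were called, 14 higher and 21 lower in scale skin. This was 32.1% of them, against 16.6% of all rows (7.77% higher and 8.86% lower). The median log2 difference of the 109 genes was -0.14, and that of all rows was -0.01. Potassium channel genes made up most of the lower calls, with 13 of 48 lower and 6 higher. Among the others, the calls higher and lower were 2 and 1 of 9 sodium, 2 and 2 of 15 calcium, 2 and 1 of 14 TRP, 0 and 1 of 12 chloride and 2 and 3 of 10 connexin and pannexin genes.

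**Figure D2:**
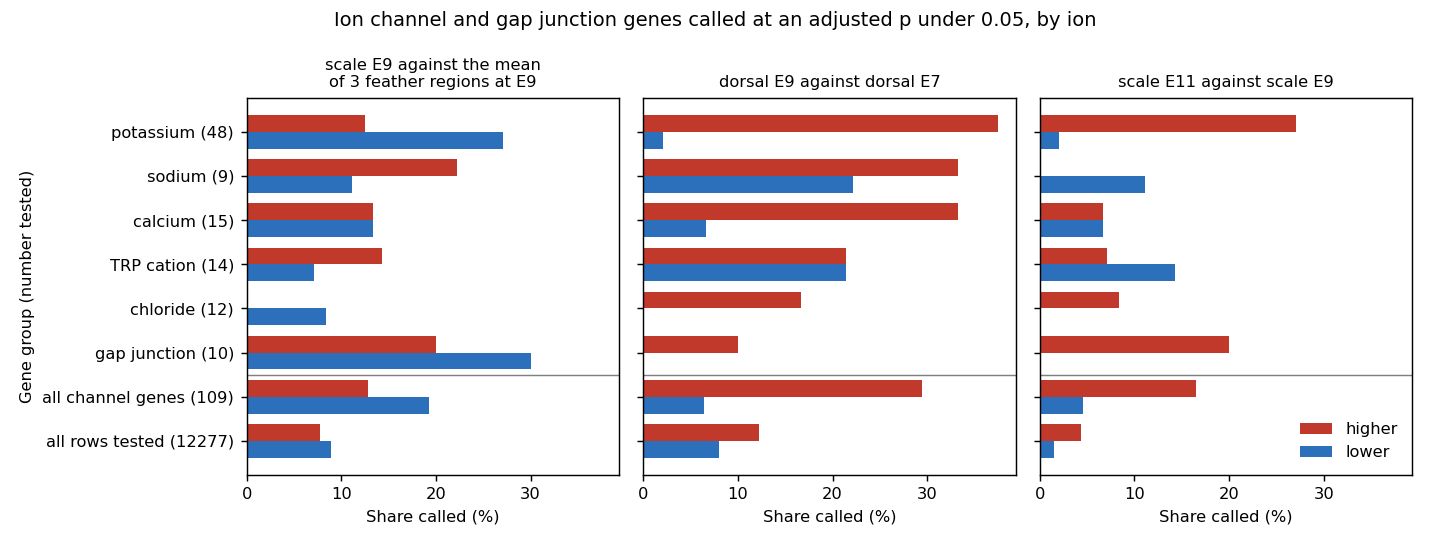
Share of genes called higher (red) and lower (blue) at an adjusted p under 0.05 in each of the 3 main comparisons, in percent of the genes tested, by ion, for all channel and gap junction genes and for all rows. Of 48 potassium channel genes 6 were higher and 13 lower in scale E9 against feather E9 skin, 18 and 1 in dorsal E9 against E7 and 13 and 1 in scale E11 against E9.

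The accessory subunit KCNMB4, which slows and tunes the large-conductance calcium-activated potassium channel, had the largest rise in scale skin. It stood at 58.2 and 60.2 CPM in scale E9 skin, against 15.7 and 11.9 in wing, 11.6 and 4.95 in thigh and 18.3 and 12.5 in dorsal E9 skin. Its 2 scale libraries lay far above all 6 feather libraries, and its log2 difference was 2.24 ± 0.27 (SE; adjusted p = 7.97e-05). KCNC4, a pore subunit of fast-repolarizing channels, had 9.70 and 11.2 CPM in scale skin, against 1.74 to 4.96 in the 6 feather libraries. Its difference was 1.37 ± 0.27, and the call was lost without scale E9 replicate 2 (adjusted p = 0.0613). KCNK1, a leak channel, had 47.4 and 61.7 CPM in scale skin, against 40.1 and 44.5 in wing, 36.3 and 30.1 in thigh and 16.5 and 21.4 in dorsal skin. KCNA5, a Shaker-type pore subunit, had 13.4 and 10.3 CPM in scale skin, against 4.42 to 9.42 in the feather libraries. Both were called at about the same size, 0.84 ± 0.16 and 0.85 ± 0.23. Neither call was firm: that of KCNK1 was lost without the dorsal libraries (0.52, adjusted p = 0.0557) or scale replicate 2 (adjusted p = 0.0682), and that of KCNA5 without either scale library or the wing libraries (0.67 to 1.02, adjusted p 0.0596 to 0.222).

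On the lower side stood KCNS2 and KCNS3, modifier subunits that form no channel of their own and change the channels they join. KCNS2 had 5.75 and 3.91 CPM in scale skin, against 26.3 and 26.0 in wing, 11.6 and 22.9 in thigh and 68.1 and 86.8 in dorsal skin. The scale libraries lay below all feather libraries, by -2.53 ± 0.22 (adjusted p = 5.31e-06), and KCNS2 was called against each feather region alone (-2.24 against wing, -1.59 against thigh and -3.76 against dorsal skin). KCNS3 had 0.69 and 0.29 CPM in scale skin, against 0.84 and 1.66 in wing, 1.70 and 2.86 in thigh and 16.2 and 11.7 in dorsal skin. Its difference of -1.68 ± 0.21 rested largely on the back, since it was -0.86 without the dorsal libraries (adjusted p = 0.0233). KCNQ5, a pore subunit of the slow M-type current that damps excitability, had 1.32 and 1.05 CPM in scale skin, against 11.8 and 13.5 in wing, 1.44 and 1.39 in thigh and 12 and 10.98 in dorsal skin. Scale and thigh skin were thus alike in level, far below wing and dorsal skin, and the difference from the feather mean was -1.77 ± 0.17 (adjusted p = 1.28e-05). KCNH5, an EAG-type pore subunit, had 1.32 and 0.70 CPM in scale skin and 2.21 to 8.42 CPM in the feather libraries, a difference of -1.41 ± 0.23 (adjusted p = 0.000781).

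Sodium channel genes with calls included an accessory subunit and a pore, both higher. SCN4B, an accessory subunit, had 5.61 and 6.65 CPM in scale skin, against 0.96 and 1.09 in wing, 2.07 and 0.77 in thigh and 1.94 and 1.03 in dorsal skin. It was higher by 1.65 ± 0.22 (adjusted p = 0.000158) and was called against each region alone, by 1.81 against wing, 1.61 against thigh and 1.54 against dorsal skin. SCN3A, a pore known from embryonic neurons, had 1.45 and 1.87 CPM in scale skin, against 0.05 to 1.26 in the feather libraries. It was called at 0.85 ± 0.21, but not without either scale library (0.73 and 0.96, adjusted p = 0.159 and 0.0577).

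The calcium channel genes with calls were 2 low-voltage pores, both higher, and 2 accessory subunits, both lower. CACNA1G, a T-type pore that opens near the resting voltage, had 259.8 and 251 CPM in scale skin, against 119 and 131 in wing, 109 and 60.7 in thigh and 122 and 138 in dorsal skin. All 6 feather libraries lay far below the scale libraries, by 1.21 ± 0.18 (adjusted p = 0.000383), and the gene was called against each region (1.03, 1.64 and 0.98 against wing, thigh and dorsal skin). CACNB2, an accessory subunit that brings calcium pores to the surface, had 7.20 and 5.25 CPM in scale skin, against 9.38 and 9.26 in wing, 31.1 and 53.6 in thigh and 7.56 and 8.93 in dorsal skin. Its difference of -1.15 ± 0.22 came with the high thigh libraries, being -0.45 without them (adjusted p = 0.110), and the call was lost also without scale replicate 2 (-0.95, adjusted p = 0.0631). CACNA2D3, another accessory subunit, and the T-type pore CACNA1I were called too, at -1.90 ± 0.17 and 1.52 ± 0.19, with overlap between the libraries. CACNA2D3 had 0.62 and 1.05 CPM in scale skin, and 0.90 and 1.0 in wing, 16.4 and 18.3 in thigh and 8.27 and 7.24 in dorsal skin. CACNA1I had 20.6 and 17.2 CPM in scale skin, against 4.60 and 5.61 in wing, 19.5 and 12.1 in thigh and 2.50 and 2.10 in dorsal skin.

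The calcium-activated chloride channel gene ANO1 had 2.29 and 2.16 CPM in scale skin, against 4.84 and 5.51 in wing, 4.83 and 5.37 in thigh and 23.8 and 20.0 in dorsal skin. It was lower by -1.56 ± 0.21 (adjusted p = 0.000225) and by -0.93 without the dorsal libraries (adjusted p = 0.0211). No other chloride channel gene was called. The intracellular chloride transporters CLCN3, CLCN5, CLCN6 and CLCN7 stood between 20.9 and 106 CPM in scale skin and were not called. The TRP calls, TRPC5 and TRPM6 higher and TRPV2 lower, were named after their values were seen, and TRPC5 and TRPM6 had at most 3.50 CPM in scale skin. TRPV2 had 60.9 and 53.8 CPM in scale skin, against 57.1 to 137 in the feather libraries, which overlapped it.

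Markers of blood vessels were mostly lower in scale E9 skin. Of 8 measured genes of smooth muscle and pericytes 7 were called lower in scale E9 skin, and 2 of the 8 lay below all feather libraries. Their summed levels were 170.2 and 104 CPM in scale skin, near the 105 and 150 of wing skin. Thigh skin had 267 and 261 CPM and dorsal skin 779.5 and 654. Of 10 endothelial genes 8 were lower, with sums of 319.7 and 234 CPM against 347 to 1319. No marker of either list was at 0 in both scale libraries, while LMOD1 had 0 in 1 of them. Epidermal markers went the other way, with 5 of 13 keratinocyte genes higher and sums of 271 and 629 CPM in scale skin against 119 to 299 in the feather libraries. The part of these cells in the channel differences was not tested.

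**Figure D3:**
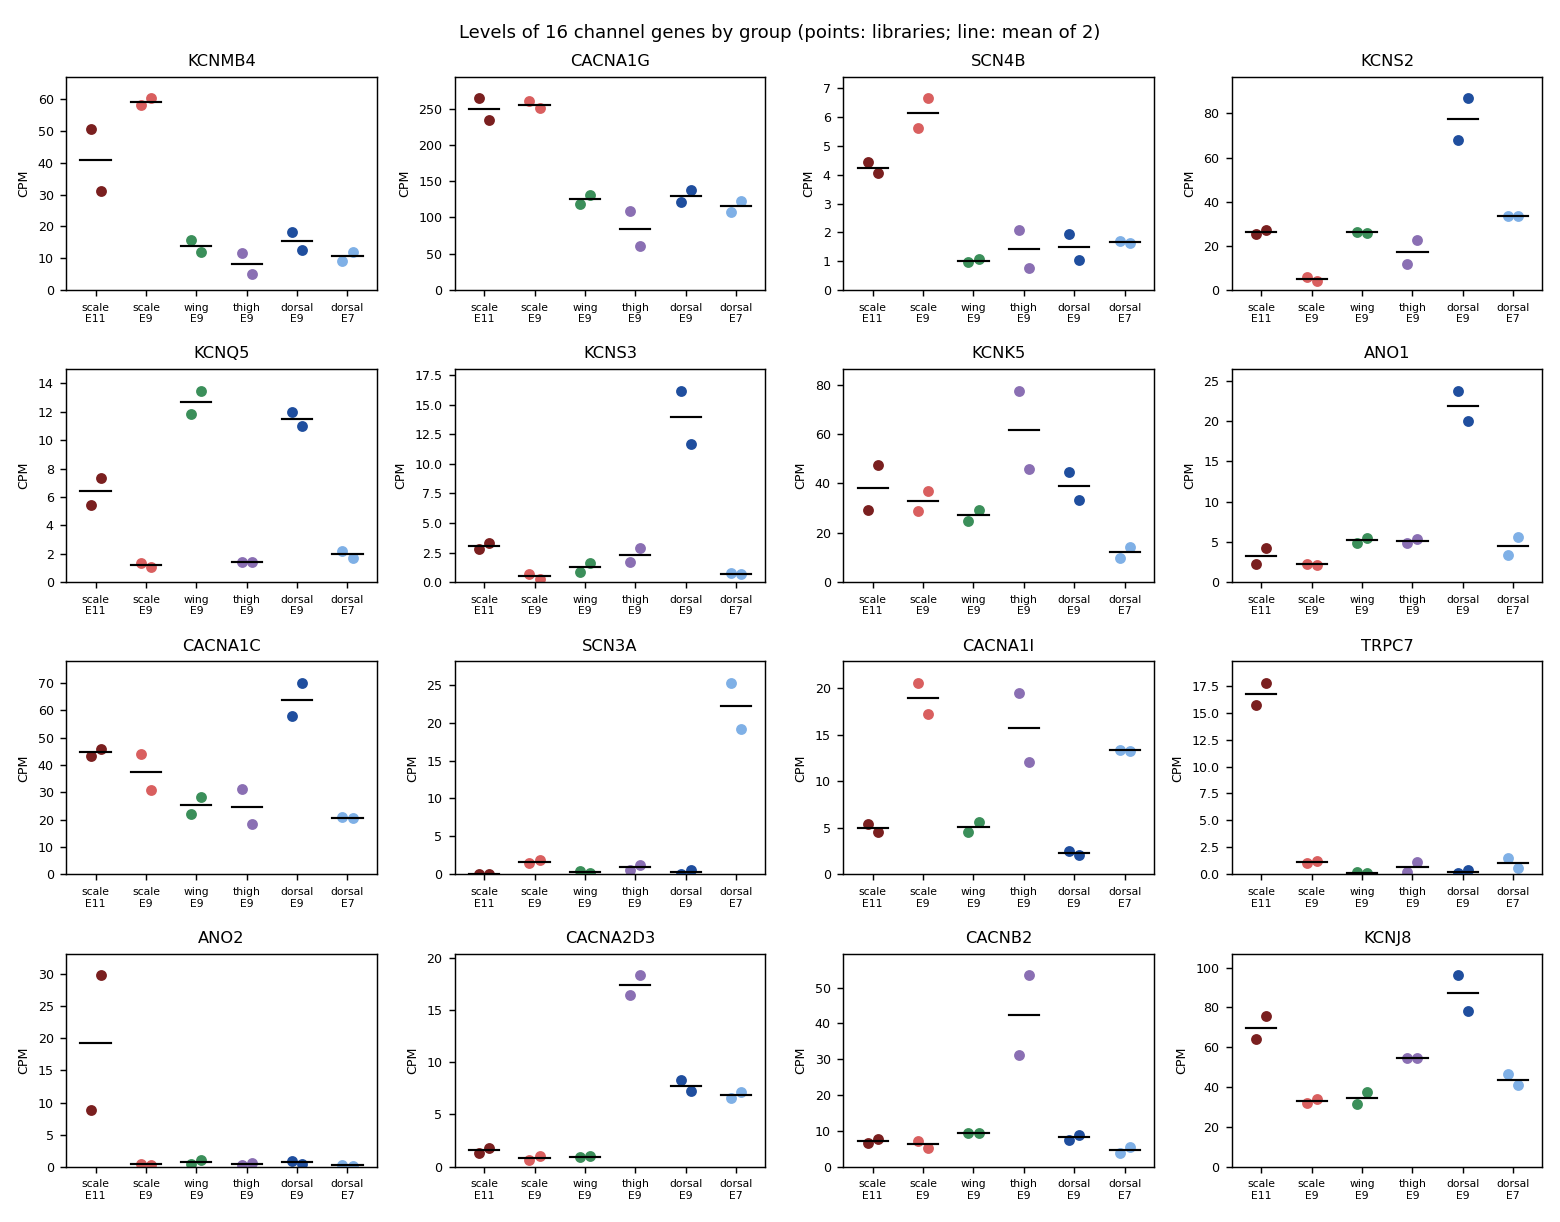
CPM of 16 ion channel genes in the 12 libraries, 1 panel per gene with its own axis from 0, points for libraries and lines for the mean of 2 libraries in each group. KCNMB4, CACNA1G and SCN4B were high in scale skin, ANO1 and KCNS3 in dorsal E9 skin, SCN3A in dorsal E7 skin, and TRPC7 and ANO2 in scale E11 skin.

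Dorsal skin at E9 was then set against dorsal skin at E7, to follow the channels as feather buds form. Calls were made for 39 of 109 genes, of which 32 rose and 7 fell, or 35.8% against 20.1% of all rows (12.2% higher and 7.96% lower). The median log2 difference was 0.36, against 0.03 for all rows. Quantile normalization gave 25 higher and 11 lower, so the higher share was 69.4% there and 82.1% in the reported fit. Potassium channel genes were again the most numerous, with 18 of 48 higher and 1, KCNK1, lower. Of the others, 5 of 15 calcium channel genes rose and 1 fell, 3 of 9 sodium rose and 2 fell, 3 of 14 TRP rose and 3 fell, and 2 of 12 chloride and 1 of 10 connexin and pannexin genes rose with none falling.

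Sodium channel pores changed in both directions. SCN3A had 0.05 and 0.62 CPM at E9, the lower being under the limit of 3 reads, against 25.2 and 19.2 at E7, a fall of -4.14 ± 0.26 (adjusted p = 2.61e-07). The pore gene of embryonic neurons was therefore high in dorsal E7 skin alone among the 6 groups. SCN8A, a pore of mature neurons, had 12.5 and 9.75 CPM at E9, against 24.4 and 23.2 at E7 (-1.04 ± 0.24). SCN9A, a pore of sensory neurons, had 8.53 and 8.68 CPM at E9, against 3.75 and 5.17 at E7 (0.83 ± 0.26). The SCN8A call was lost without dorsal E7 replicate 1 or E9 replicate 2 (-1.01 and -0.88, adjusted p 0.0639 to 0.0703), and that of SCN9A without any 1 of the 4 dorsal libraries or under quantile normalization (adjusted p 0.0683 to 0.286). Of 8 neuron markers 2 were lower at E9, GAP43 among them, and none was called higher, while the median log2 difference of the list was 0.27. Its summed level, 37.3 and 69.1 CPM at E9 against 139 and 147 at E7, was at E7 mostly that of those 2 genes. GAP43 had 3.37 and 2.87 CPM at E9, against 32.9 and 22.9 at E7. The marker STMN2 was at 0 and 0.06 CPM at E7. The part of neurons in the falls of SCN3A and SCN8A was not tested.

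The potassium channel rises were spread over subunit classes. Of the modifier subunits, KCNS3 had 16.2 and 11.7 CPM at E9, against 0.74 and 0.68 at E7 (3.11 ± 0.26, adjusted p = 2.92e-06), and KCNS2 had 68.1 and 86.8, against 33.7 and 33.6 (1.17 ± 0.26). The M-type pore genes KCNQ3 and KCNQ5 rose as well. KCNQ3 had 6.33 and 7.24 CPM at E9, against 0.66 and 0.80 at E7 (2.17 ± 0.23), and KCNQ5 had 12 and 10.98, against 2.21 and 1.71 (2.08 ± 0.21). In none of these 4 genes did the E9 and E7 libraries overlap. The leak channels KCNK17 and KCNK5, next to each other in the RefSeq gene order, rose too. KCNK17 had 6.74 and 3.34 CPM at E9, against 0.44 and 0.68 at E7 (1.90 ± 0.27), and KCNK5, whose relative in zebrafish sets fin length, had 44.5 and 33.3, against 10.01 and 14.1 (1.61 ± 0.29). The KCNS2 call was lost without dorsal E7 replicate 1 or E9 replicate 2 (adjusted p 0.0501 to 0.0681).

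Other potassium channel genes that rose included KCNH5, KCNJ8, KCNJ15, KCNA2, KCNC4 and KCNIP4. KCNJ8, the pore of the ATP-sensitive channel of vascular smooth muscle and pericytes, had 96.3 and 78.1 CPM at E9, against 46.6 and 40.8 at E7 (0.98 ± 0.17, adjusted p = 0.00117). KCNH5 had 4.24 and 8.42 CPM at E9, against 1.55 and 1.65 at E7 (1.43 ± 0.28), and the inward rectifier KCNJ15 had 6.33 and 5.03, against 2.43 and 2.10 (1.03 ± 0.20). The calls of KCNA2, KCNC4 and KCNIP4, at 0.71 to 1.06, were not firm. Each was lost with any 1 of the 4 dorsal libraries left out and under quantile normalization, and KCNC4 also without either scale E9 library (adjusted p 0.0514 to 0.235 over these settings).

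Calcium channel genes rose in both pores and accessory subunits. CACNA1C, the L-type pore that carries calcium into muscle cells, had 57.8 and 70.1 CPM at E9, against 20.8 and 20.5 at E7 (1.58 ± 0.24, adjusted p = 0.000467). CACNA1E, an R-type pore, had 15.8 and 11.04 CPM at E9, against 3.61 and 5.34 at E7 (1.39 ± 0.30). Of the T-type pores, CACNA1H had 59.5 and 65.3 CPM at E9, against 35.7 and 32.6 at E7 (0.85 ± 0.27), while CACNA1I had 2.50 and 2.10, against 13.4 and 13.3 (-2.12 ± 0.24, adjusted p = 3.13e-05). The T-type genes thus moved in opposite directions, and CACNA1G, at 122 and 138 CPM at E9 against 108 and 123 at E7, was not called. CACNA2D1 and CACNA2D2, accessory subunits that raise the number of surface channels, had rises of 0.97 ± 0.26 and 0.76 ± 0.23. The calls of CACNA1H, CACNA2D1 and CACNA2D2 were lost without any 1 of the 4 dorsal libraries, that of CACNA1H also without either wing library and that of CACNA2D1 also under quantile normalization (adjusted p 0.0508 to 0.195 over these settings). That of CACNA1E was lost without dorsal E7 replicate 1 or E9 replicate 1 (adjusted p 0.0644 to 0.0685).

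Of the chloride and TRP genes, ANO1 had 23.8 and 20.0 CPM at E9, against 3.39 and 5.57 at E7 (2.09 ± 0.26, adjusted p = 9.14e-05). ANO6, which moves lipids across the membrane as well as ions, had 36.5 and 30.8 CPM at E9, against 14.3 and 11.3 at E7 (1.33 ± 0.25). TRPM2, gated by ADP-ribose, had 6.84 and 4.26 CPM at E9, against 1.10 and 0.85 at E7 (1.70 ± 0.25). TRPV2 had 100 and 98.4 CPM at E9, against 61.3 and 51.5 at E7 (0.81 ± 0.17), with the call lost without dorsal E7 replicate 2 (adjusted p = 0.0603). TRPM1, a channel of melanocytes and retinal neurons, had 1.02 and 2.87 CPM at E9, against 7.14 and 5.97 at E7. Its fall of -1.43 ± 0.34 was not called without dorsal E7 replicate 1 or E9 replicate 1 (adjusted p 0.0782 to 0.124). Melanocyte markers had summed levels of 80.4 and 71.6 CPM at E9 against 165 and 155 at E7, with 2 of 8 genes higher and 2 lower, and their part in this fall was not tested.

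Vessel markers were mostly higher in dorsal skin at E9 than at E7. Smooth muscle and pericyte genes had sums of 779.5 and 654 CPM at E9 against 161 and 159 at E7, with 7 of 8 genes higher, and endothelial genes had 1319 and 1075 CPM against 541 and 553, with 9 of 10 higher. Genes of skeletal muscle had sums of 92.5 and 20.3 CPM at E9 against 15.1 and 9.94 at E7. Keratinocyte genes had sums of 173 and 187 CPM at E9 against 82.4 and 104 at E7, with 7 of 13 higher. No smooth muscle or endothelial marker was at 0 in any dorsal library, and the part of these cells in the channel rises was not tested.

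Scale skin at E11 was set against scale skin at E9, the step over which scale placodes and ridges appear. Of 109 genes 23 were called, 18 higher and 5 lower at E11, or 21.1% against 5.83% of all rows (4.37% higher and 1.46% lower). The median log2 difference was 0.19, against 0.01 for all rows. Quantile normalization gave 12 higher and 6 lower, a higher share of 66.7% against 78.3%. The calls fell to 9 without scale E9 replicate 2 and to 10 without scale E11 replicate 2. By ion, 13 of 48 potassium channel genes rose and 1 fell. Calcium had 1 rise and 1 fall among 15, TRP 1 and 2 among 14, sodium 0 and 1 among 9, chloride 1 and 0 among 12, and connexins and pannexins 2 and 0 among 10.

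The largest rises were in genes at a low level at E9, 7 and 5 reads for ANO2 and 15 and 21 for TRPC7. ANO2, a calcium-activated chloride channel of sensory cells, had 8.76 and 29.9 CPM at E11, against 0.48 and 0.29 at E9 (3.65 ± 0.40, adjusted p = 0.000292). Its E11 libraries differed widely from each other, yet both lay above all other libraries, which had at most 1.0 CPM. TRPC7, a cation channel opened by lipid signals downstream of receptors, had 15.7 and 17.8 CPM at E11, against 1.04 and 1.23 at E9 (3.05 ± 0.29, adjusted p = 0.000109). No other group had more than 1.55 CPM of TRPC7 in a library.

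Among potassium channel genes, KCNS2 had 25.5 and 27.1 CPM at E11, against 5.75 and 3.91 at E9 (2.24 ± 0.26, adjusted p = 0.00046), and KCNQ5 had 5.47 and 7.34, against 1.32 and 1.05 (1.75 ± 0.21, adjusted p = 0.000499). KCNJ8 had 64.1 and 75.6 CPM at E11, against 32.0 and 33.8 at E9 (1.06 ± 0.17). The G-protein-gated inward rectifier KCNJ3 had 6.51 and 4.59 CPM at E11, against 1.87 and 1.52 at E9 (1.27 ± 0.23). KCNS3 had 2.85 and 3.35 CPM at E11, against 0.69 and 0.29 at E9 (1.47 ± 0.26). For none of these genes did the libraries of both ages overlap. KCNQ3 had 4.27 and 5.56 CPM at E11, against 2.22 and 1.40 at E9 (1.08 ± 0.23). Leaving out scale E9 replicate 2 ended the calls of KCNJ3, KCNQ3 and KCNS3, as did leaving out 1 of the E11 libraries (replicate 1 for KCNJ3, replicate 2 for KCNQ3 and KCNS3), at adjusted p 0.0544 to 0.163.

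The 5 genes that fell in scale skin were CACNA1I, SCN3A, TRPC5, KCNJ6 and TRPM6. All but CACNA1I averaged under 3 CPM at both ages, and the last 3 are named after their values were seen. CACNA1I had 5.37 and 4.54 CPM at E11, against 20.6 and 17.2 at E9 (-1.74 ± 0.24, adjusted p = 0.000872). SCN3A had 0.11 and 0 CPM at E11, a count of 0 allowing up to 0.162 CPM in that library, against 1.45 and 1.87 at E9 (-1.33 ± 0.26). That call was lost without scale E9 replicate 2 or E11 replicate 2 (adjusted p 0.0994 to 0.0999). CACNA2D1 had 6.79 and 12.8 CPM at E11, against 3.81 and 5.02 at E9, and was called at 0.95 ± 0.26 with an adjusted p of 0.0477, lost in 13 of the alternatives, among them the removal of either scale E9 library or of E11 replicate 2 (0.53, adjusted p = 0.404).

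Endothelial markers rose in scale skin over the same step, with sums of 695 and 785 CPM at E11 against 319.7 and 234 at E9 and 8 of 10 genes higher. Smooth muscle and pericyte genes had 249.8 and 242 CPM against 170.2 and 104, with 2 of 8 higher. None of the 10 endothelial genes was at 0 in a scale library. Neuron markers had sums of 56.1 and 29.8 CPM at E11 against 102 and 71.7 at E9, with 0 of 8 called. Their part in the channel changes was not tested.

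The dorsal and scale steps in age share no library, though they cover different ages, E7 to E9 and E9 to E11. Both were tested with the same estimate of each gene's spread over all 12 libraries, so their calls are not fully independent. The genes called higher in both were 10, among them CACNA2D1, GJA4, KCNE4, KCNH7, KCNJ8, KCNQ3, KCNQ5, KCNS2 and KCNS3. They made up 31.2% of the 32 that rose in dorsal skin and 55.6% of the 18 that rose in scale skin, against 24.5% and 68.2% over all rows. Those called lower in both were CACNA1I, SCN3A and TRPC5, 42.9% of the 7 dorsal falls and 60% of the 5 scale falls, against 9.93% and 54.2% over all rows. No channel gene was called in opposite directions, among 39 called in dorsal and 23 called in scale skin. Over all rows 24 were, 0.971% of the 2471 dorsal calls and 3.35% of the 716 scale calls. With shares this small and so few channel calls, the absence of opposite calls is not read as a property of channel genes. The comparison of scale with feather skin at E9 shares the scale E9 and dorsal E9 libraries with these steps, so genes such as KCNS2 and KCNQ5, low in scale E9 and then higher at E11, draw on the same libraries in both results.

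**Figure D4:**
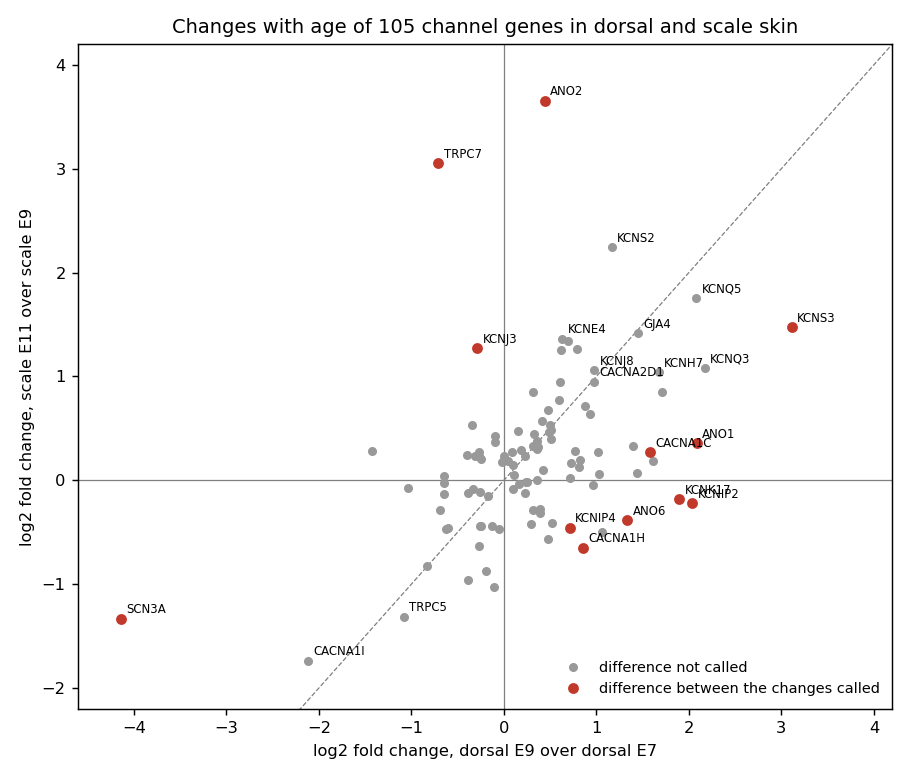
Change with age in scale skin (E11 minus E9, vertical axis) against that in dorsal skin (E9 minus E7, horizontal axis), in log2 of CPM + 1, for 105 ion channel and gap junction genes. KCNS2, KCNQ5 and KCNS3 lay in the upper right and CACNA1I and SCN3A in the lower left, while ANO2 and TRPC7 changed in scale skin.

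The test of the difference between the steps called 13 of 109 genes, 4 with a more positive change in scale skin and 9 with a more positive change in dorsal skin, or 11.9% against 4.98% of all rows (1.98% and 3.01% in those directions). TRPC7 differed by 3.76 ± 0.40 (adjusted p = 0.000183), with 0.10 and 0.41 CPM in dorsal E9 skin against 1.55 and 0.63 at E7. KCNK17 differed by -2.08 ± 0.38, having 0.77 and 0.49 CPM in scale E11 skin against 0.76 and 0.93 at E9. The age of the steps is part of this difference and cannot be told apart from the body region.

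Regions were also compared in pairs at E9. Scale skin had 43 of 109 genes called against dorsal skin (12 higher and 31 lower, 39.4% against 21.8% of all rows, 9.23% higher and 12.6% lower), 36 against thigh skin (16 and 20, 33% against 24.4%, 11.7% higher and 12.7% lower) and 25 against wing skin (15 and 10, 22.9% against 8.89%, 4.77% higher and 4.13% lower). Thigh skin differed from dorsal skin in 48 genes (15 higher and 33 lower, 44% against 30%, 13.5% higher and 16.5% lower), wing from dorsal skin in 38 (9 and 29, 34.9% against 20.1%, 7.62% higher and 12.5% lower) and wing from thigh skin in 38 (16 and 22, 34.9% against 20.9%, 9.25% higher and 11.6% lower). Quantile normalization gave 18 higher and 25 lower for thigh against dorsal skin, a higher share of 41.9% against 31.2%. The comparisons share libraries and are not independent of each other. In all of them that involve the back, most potassium channel calls were lower outside it: 21 of 48 lower and 6 higher in scale skin, 21 and 5 in thigh skin and 15 and 8 in wing skin.

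Of the 8 genes with symbols of accessory calcium channel subunits, 3 were called higher in thigh than in dorsal skin (CACNB2, CACNA2D3 and CACNG3). The 2 called lower were CACNA2D2 and CACNB1 (-1.51 ± 0.23 and -0.73 ± 0.23), named after their values were seen. Over all rows 13.5% were higher and 16.5% lower, and nothing is read from so few genes for thigh skin. CACNB2 had 31.1 and 53.6 CPM there, against 7.56 and 8.93 in dorsal skin (2.18 ± 0.26, adjusted p = 6.92e-05), and CACNA2D3 had 16.4 and 18.3, against 8.27 and 7.24 (1.07 ± 0.21). Wing skin was lower than thigh skin in both, by -2.02 ± 0.26 and -3.24 ± 0.21, with CACNA2D3 at 0.90 and 1.0 CPM in the wing. CACNG3, placed in this group by its symbol only, had 0.30 and 1.05 CPM in wing and 7.53 and 3.77 in thigh skin (-1.97 ± 0.30). In scale skin CACNG3 had 0.97 and 0.99 CPM (-1.69 ± 0.30 against thigh). KCNAB1, a cytoplasmic partner of Shaker-type pores, had 0.94 and 0.56 CPM in thigh skin, against 9.81 and 7.65 in dorsal skin (-2.47 ± 0.25, adjusted p = 1.63e-05). The T-type pore CACNA1I had 19.5 and 12.1 CPM in thigh skin, against 2.50 and 2.10 in dorsal skin (2.31 ± 0.24), and the Shaker-type pore KCNA1 had 11.8 and 8.72, against 1.12 and 4.36 (1.73 ± 0.35, and 1.06 without dorsal E9 replicate 1). The endosomal chloride transporter CLCN4 had 21.5 and 29.6 CPM in thigh skin, against 10.7 and 13.6 in dorsal skin (1.01 ± 0.22), with the call lost without dorsal E9 replicate 1 (0.85) or with only the libraries compared (adjusted p 0.0548 to 0.0578). In the annotation CACNB2 overlaps NSUN6, and without strand their reads cannot be told apart. The same limit holds for CACNA1C, ANO4, KCNIP4, KCNH1, CLCN3, CLCN6, TRPV2, KCNQ5 and CACNB1, each of which overlaps another protein-coding gene there.

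Wing skin had the highest level of several potassium channel genes. KCNJ5, a G-protein-gated inward rectifier, had 11.7 and 6.94 CPM in wing, against 2.25 and 1.64 in dorsal skin (1.78 ± 0.24, adjusted p = 0.00019), and scale skin was lower than wing by -1.87 ± 0.24. Thigh skin had a KCNJ5 mean of 6.15 CPM, and wing was not called against it (0.49 ± 0.24, adjusted p = 0.162). Thigh was itself called higher than dorsal skin (1.29 ± 0.24, adjusted p = 0.00157), and scale skin lower than thigh (-1.38 ± 0.24). The rise of KCNJ5 over dorsal skin was thus shared by wing and thigh. KCNJ5 overlaps KCNJ1 and ARHGAP33 in the annotation, so those reads are uncertain. KCNQ5 had 11.8 and 13.5 CPM in wing against 1.44 and 1.39 in thigh skin (2.50 ± 0.21, adjusted p = 5.57e-06). Its wing level was close to that of dorsal E9 skin, with means of 12.7 and 11.5 CPM and overlapping libraries, so it did not set the wing apart. KCNK2, a leak channel opened by stretch, KCNT2, a sodium-activated channel, and KCNH1, an EAG-type pore, were called higher in wing than in each other region at E9. They are named after their values were seen. KCNK2 had 3.65 and 6.08 CPM in wing, against 0.63 and 0.84 in thigh and 0.77 and 0.51 in dorsal skin, and KCNT2 had 3.41 and 3.90, against 0.69 and 0.35 and 0.61 and 0.56. ANO4 was lower in wing than in dorsal skin, at 0.36 and 0.67 CPM against 4.65 and 5.95 (-2.06 ± 0.26). KCNIP4 and KCNB2 were higher in wing than in thigh skin, by 1.37 ± 0.21 and 1.64 ± 0.29, and higher in scale than in thigh skin, by 1.49 ± 0.21 and 1.33 ± 0.29. The KCNB2 call for scale against thigh skin was lost without scale E9 replicate 1 (1.10, adjusted p = 0.0578).

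Of the 10 connexin and pannexin genes, 3 were lower and none higher than in dorsal E9 skin both in scale E9 and in wing skin, and 2 were lower and 1 higher in thigh skin. Over all rows, 12.6% were lower and 9.23% higher in scale E9, 12.5% and 7.62% in wing, and 16.5% and 13.5% in thigh skin. With so few genes, nothing is read from these counts for connexins and pannexins. GJA1, a connexin gene of many mesenchymal cells, had 633 and 672 CPM in scale E11, 894 and 848 in scale E9, 690 and 752 in wing, 1092 and 1960 in thigh, 1725 and 1843 in dorsal E9 and 1195 and 1285 in dorsal E7 skin. It was lower than in dorsal E9 skin in scale E9 skin (-1.03 ± 0.24, adjusted p = 0.00616) and in wing skin (-1.31 ± 0.24, adjusted p = 0.00164), without overlap. Against the mean of the feather regions it was not called (-0.50 ± 0.19, adjusted p = 0.0995). Leaving out either thigh library changed that result, since GJA1 was called without thigh replicate 1 (-0.64, adjusted p = 0.000289) and without thigh replicate 2 (-0.36, adjusted p = 0.0131). With age it was called neither in dorsal skin (0.52 ± 0.24, adjusted p = 0.146) nor in scale skin (-0.42 ± 0.24, adjusted p = 0.420), and without either thigh library it was called in both (adjusted p 0.00286 to 0.0269).

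GJA4 and GJA5, connexin genes of arterial endothelium, had the clearest changes. GJA4 had 22.1 and 18.7 CPM in scale E11, against 7.41 and 6.60 in scale E9 skin (1.42 ± 0.20, adjusted p = 0.00109), and 33.9 and 25.0 in dorsal E9, against 9.49 and 10.6 in dorsal E7 skin (1.45 ± 0.20, adjusted p = 0.000206). It rose in both regions by about the same amount, and in scale E9 skin it was lower than the feather mean by -0.88 ± 0.16, a call that rested on the back (-0.36 without the dorsal libraries, adjusted p = 0.187). GJA5 had 32.2 and 30.8 CPM in scale E11, against 14.2 and 9.86 in scale E9 skin (1.34 ± 0.23), a call lost without scale E9 replicate 2 (1.10, adjusted p = 0.0697). In dorsal skin it had 61.2 and 44.6 CPM at E9 against 30.6 and 33.5 at E7, just short of a call (0.69 ± 0.23, adjusted p = 0.0529) and called in edgeR (adjusted p = 0.0162) and DESeq2 (adjusted p = 0.00469), both fitted without thigh replicate 2. Scale E9 skin was lower in GJA5 than the feather mean (-1.32 ± 0.19, adjusted p = 0.000314), with wing skin overlapping it at 13.4 and 14.6 CPM. The endothelial markers moved the same way in all 3 comparisons, as given above, and their part was not tested.

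GJC1 stood between 29.4 and 52.6 CPM in all libraries, lowest in thigh skin (29.4 and 33.3, against 52.6 and 48.8 in dorsal E9 skin; -0.68 ± 0.15, adjusted p = 0.00606). The epithelial connexin genes GJB1 and GJB6 stayed at or below 4.61 CPM and were called in no comparison. Of the pannexins, PANX2 had 84.1 and 85.4 CPM in scale E9, against 44.4 to 67.7 in the feather E9 libraries (0.62 ± 0.14, adjusted p = 0.00773). Dorsal E7 skin, also feather-forming, had a PANX2 mean of 78.4 CPM, near the scale E9 level. PANX3, known from cartilage and bone, had 16.6 and 15.4 CPM in scale E9, against 6.34 to 14.3 (0.61 ± 0.17, adjusted p = 0.0238). Both calls were lost without either scale E9 library, and that of PANX3 also without the thigh libraries (0.37, adjusted p = 0.134), without wing replicate 1 or dorsal E9 replicate 2, and when the fit was limited to the groups compared. The adjusted p over these settings was 0.0617 to 0.0784 for PANX2 and 0.0519 to 0.166 for PANX3. PANX1 had 5.16 and 6.88 CPM in dorsal E9, against 10.7 and 9.27 in dorsal E7 skin (-0.65 ± 0.24, adjusted p = 0.0706).

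**Figure D5:**
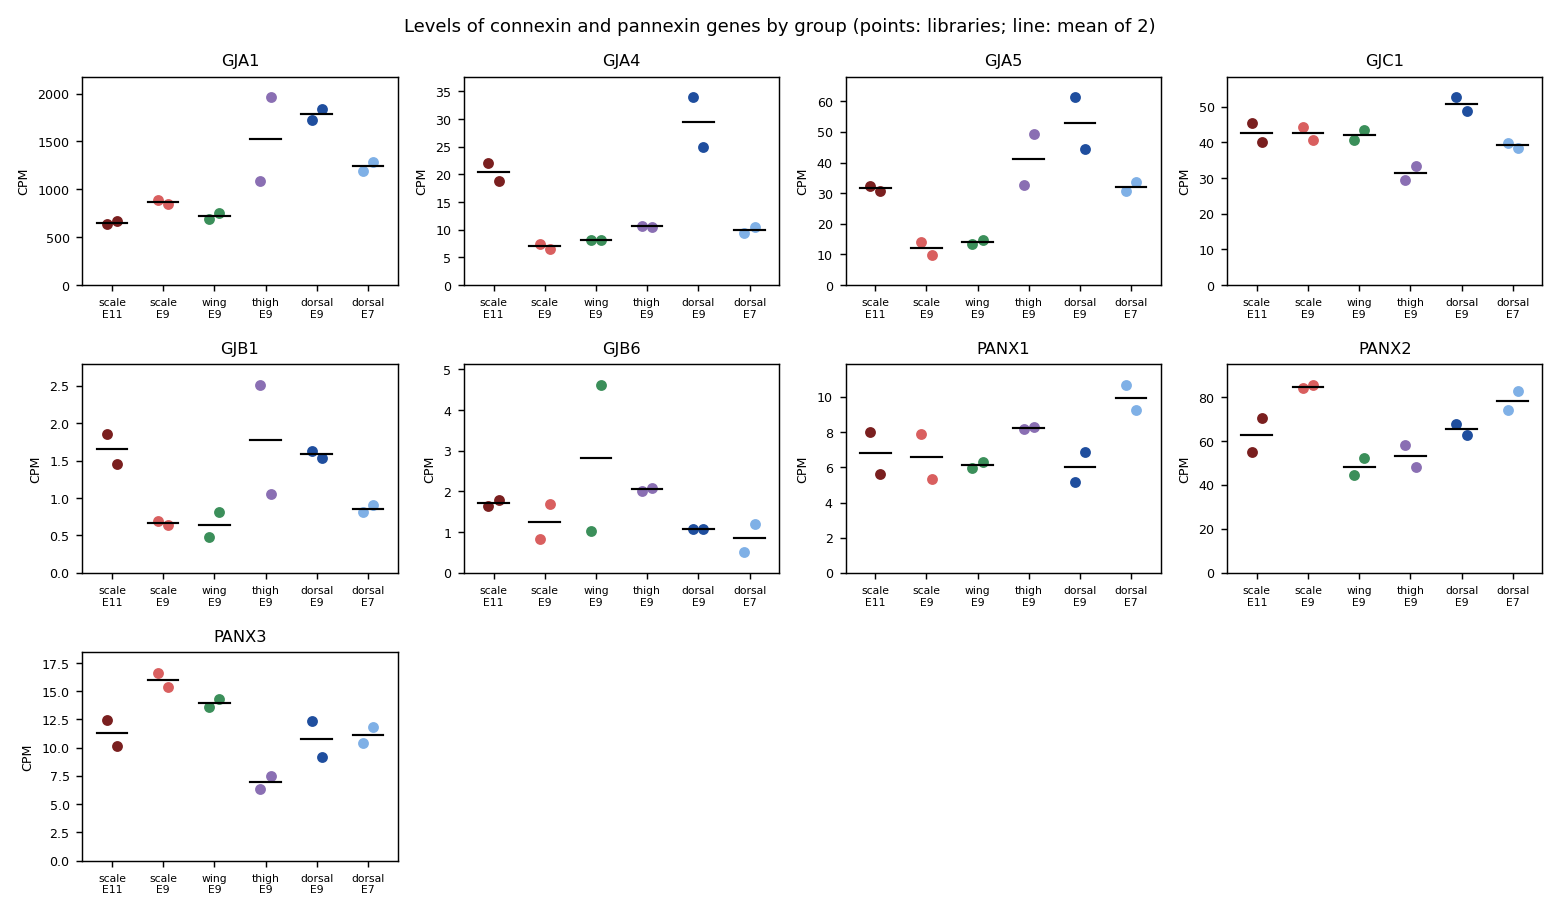
CPM of 6 connexin and 3 pannexin genes in the 12 libraries, 1 panel per gene with its own axis from 0, points for libraries and lines for the mean of 2 libraries in each group. GJA4 stood at 18.7 to 22.1 CPM in scale E11 and 25.0 to 33.9 in dorsal E9 skin, above the 6.60 to 10.7 of the other groups. PANX2 was highest in scale E9 skin at 84.1 and 85.4, near the mean of 78.4 in dorsal E7 skin.

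A set of channel genes was called in none of the 10 comparisons, 22 of 109 (20.2%), against 44.7% of all rows. It held 5 of the chloride genes (ANO5, ANO10, CLCN1, CLCN3 and CLCN7), the pore gene HCN2 and 5 TRP genes. Examples chosen after their values were seen are ANO5, at 186 to 252 CPM over the 12 libraries, CLCN3, at 92.4 to 128, and TRPC1, at 72.6 to 105. The absence of a call does not show that their levels were equal.

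Genes that lie next to each other did not always move together. By RefSeq gene order the neighbouring pairs were KCNA1 and KCNA5, KCNJ6 and KCNJ15, TRPV1 and TRPV3, SCN4B and SCN2B, KCNK17 and KCNK5, and SCN2A and SCN3A. SCN4B was high in scale E9 skin, while SCN2B had 0.48 and 1.11 CPM there, against 0.49 to 2.23 in the feather libraries. SCN3A, at 25.2 and 19.2 CPM in dorsal E7 skin, lies beside SCN2A, at 2.13 and 0.91 CPM. TRPV1 and TRPV3 overlap in the annotation, so their reads cannot be told apart without strand.

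The channels act with pumps, stores and calcium-reading proteins, counted here from 8 lists. Beside these small counts, 7.77% of all rows were higher and 8.86% lower in scale E9 skin against the feather mean, 12.2% and 7.96% in dorsal E9 against E7 skin, and 4.37% and 1.46% in scale E11 against E9 skin. Counts of 1 or 2 genes in a list are too small to be weighed against those shares, and nothing is read from them for the list. In scale E9 skin against the feather mean, mechanosensitive and polycystin channels had 1 of 7 genes higher, PIEZO2, a channel opened by membrane stretch. It had 326 and 337 CPM in scale skin, against 94.0 to 229 in the feather libraries (1.19 ± 0.17, adjusted p = 0.000288). Of 12 calcium signal effectors 2 were higher, NFATC2 and NFATC1, transcription factors switched on by calcineurin. NFATC2 had 56.6 and 35.5 CPM in scale skin, against 1.85 to 14.6 in the feather libraries (2.56 ± 0.24, adjusted p = 1.09e-05). Of 11 calcium pumps and exchangers 1 was higher and 2 lower; SLC8B1, the mitochondrial sodium-calcium exchanger, had 46.7 and 41.0 CPM in scale skin, against 7.65 to 15.3 (1.89 ± 0.18). Of 12 other chloride and anion channels 3 were lower and none higher, namely LRRC8B, LRRC8C and LRRC8D, subunits of volume-regulated anion channels, by -1.30, -0.91 and -0.95.

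The store release and entry list had 1 of 17 genes higher (TPCN1, an endolysosomal channel, 0.97 ± 0.16) and 1 lower (RYR2, -1.02 ± 0.24). Epithelial and acid-sensing sodium channels and purinergic receptors had 2 of 12 higher (SCNN1B and P2RX4) and 1 lower (ASIC4). Of 10 junction scaffold genes CDH1 was higher (1.74 ± 0.43), and CAV1 and NOV, proteins that bind connexins, were lower (-1.30 ± 0.22 and -1.79 ± 0.46). None of the 5 sodium pump genes was called.

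In dorsal skin with age, 5 of 12 other chloride and anion channel genes rose and none fell. LRRC8C had 23.1 and 28.1 CPM at E9, against 6.11 and 4.49 at E7 (2.08 ± 0.22, adjusted p = 1.78e-05), LRRC8B rose by 1.49 ± 0.26 and the mitochondrial outer membrane channel VDAC1 by 1.21 ± 0.19. PIEZO2 had 166 and 229 CPM at E9, against 67.8 and 65.2 at E7 (1.54 ± 0.21), and with PIEZO1 and PKD2 made 3 of 7 higher. NFATC2 had 6.64 and 9.80 CPM at E9, against 0.74 and 0.57 at E7 (2.46 ± 0.29), the 1 call among 12 effectors. The store list had 4 of 17 higher (STIM1, RYR3, ITPR2 and MCU) and 1 lower (ITPR1), and the pumps and exchangers 2 of 11 higher and 2 lower, with SLC8A3 at 6.54 and 7.85 CPM against 33.3 and 25.5 (-1.89 ± 0.34). ASIC4 and ASIC1 were the 2 of 12 that rose in the acid-sensing and purinergic list, ATP1B4 the 1 of 5 pump genes, and CAV1 (2.23 ± 0.26) and NOV (2.25 ± 0.56) the 2 of 10 scaffold genes. In scale skin with age only CAV1 (1.78 ± 0.26) and the anion channel gene CLIC2 (0.99 ± 0.26) were called among the 8 lists, both higher. CAV1 is also an endothelial gene, and the endothelial markers given above moved with it. The part of endothelial or other cells in the CAV1 changes was not tested.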

How the data were processed

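RNA of skin from 6 groups of chicken embryos, 2 libraries each, was extracted in Trizol, per the labels, and TruSeq RNA V2 was the library kit. The deposited table gives signal, as CPM on an effective library size; per the submitters' processing notes the authors used TopHat2, Partek, HTSeq, edgeR and the build galGal4, with no version or role given. Counting by strand is not stated. No reference genome of that build was used, and no coordinates or sequences are given. RefSeq gene names were matched for 108 of 110 genes and used for neighbours and overlaps only.

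A row was kept where 2 or more libraries reached 1 CPM (12277 kept and 20 removed). log2(CPM + 1) was fitted in limma 3.58.1 (R 4.3.3) with 1 mean per group over all 12 libraries and a mean-variance trend (residual degrees of freedom 6, prior 6.95), with two-sided tests. P-values were adjusted over all rows within each of 10 comparisons. In 11 libraries 100% of values up to 100 CPM were whole multiples of 1 read within 0.0055 CPM, so those reads were recovered and tested in edgeR 4.0.16 and DESeq2 1.42.0 as alternatives. Thigh replicate 2 did not pass a check for whole reads and was left out of these tests, so the other thigh library is assumed there to vary like the other groups. The fits were tested on simulated data.

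The genes, lists and tests were chosen with earlier results of these data known. Named genes were the connexin and pannexin genes, and called genes with a group mean of at least 5 CPM whose libraries did not overlap (up to 30 in a main comparison, 6 per direction in others, and no overlap rule for the difference between steps). Up to 4 called genes of each other list were also named. Replicate numbers were not taken as pairs. Some genes of these lists are not reported here, though counts over the lists include them.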

Additional observations from a re-analysis of the deposited data

Results flagged for a closer look

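Flagged here are 12 genes whose change with age differed between scale skin (E11 against E9) and dorsal skin (E9 against E7), by limma's test of the difference itself at an adjusted p under 0.05. With a more positive change in dorsal skin were KCNIP2 (-2.25), KCNK17 (-2.08), ANO1 (-1.73), ANO6 (-1.72), KCNS3 (-1.64), CACNA1H (-1.50), CACNA1C (-1.31) and KCNIP4 (-1.17), on the log2 scale. CACNA1C and KCNIP4 were near the threshold in that test (adjusted p = 0.0457 and 0.0370). How their calls and that of KCNIP2 held in the alternative runs is not given here, so they are not to be taken as firm. With a more positive change in scale skin were KCNJ3 (1.56), SCN3A (2.81), ANO2 (3.21) and TRPC7 (3.76).

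The SCN3A difference depends on the scale of measurement. The gene fell in both regions, by -1.33 in scale and -4.14 in dorsal skin on log2(CPM + 1), and on recovered reads the difference was 1.26 in edgeR (adjusted p = 0.766) and 1.13 in DESeq2 (adjusted p = 0.734). ANO2 was not called in edgeR (3.94, adjusted p = 0.136). KCNS3 rose in both regions, and its difference was not called in edgeR, in DESeq2, with a pseudocount of 0.5 CPM or without any of 6 libraries (adjusted p 0.0571 to 0.208). Differences of CACNA1H were not called without any of 9 libraries (adjusted p 0.0509 to 0.158), those of ANO1 without any of 5 libraries (adjusted p 0.0502 to 0.0997), and those of ANO6 and KCNJ3 each without any of 4 libraries (adjusted p 0.056 to 0.081). The steps differ in age as well as in region, which cannot be told apart.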

How the results depend on the processing

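No gene named here and called changed direction, and of 141 calls of named genes 91 held under every alternative run. The number of channel genes called was moved by over 1.5 times in these cases. A filter at 5 CPM, which tests fewer genes, gave 11 for scale E11 against E9, 28 for scale against dorsal skin, 15 for scale against wing skin and 25 for wing against thigh skin. Fitting only the libraries compared, which leaves fewer residual degrees of freedom, gave 21 for scale against thigh, 28 for thigh against dorsal and 17 for wing against thigh skin.

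Leaving out 1 library at a time gave 18 to 46 calls for scale E9 against the feather mean (lowest without scale E9 replicate 2), 22 to 49 for dorsal E9 against E7 (lowest without dorsal E7 replicate 1), 9 to 28 for scale E11 against E9, 33 to 52 for scale against dorsal, 20 to 45 for scale against thigh, 13 to 32 for scale against wing, 30 to 52 for thigh against dorsal, 30 to 45 for wing against dorsal, 16 to 37 for wing against thigh skin and 7 to 18 for the difference between the steps in age. A lone library is then assumed to vary like the other groups. In every comparison except wing against thigh skin, the highest count came without thigh replicate 1. This held also for comparisons with no thigh library, where all libraries still share the estimate of the spread. Without all dorsal, thigh or wing E9 libraries, scale E9 against the rest gave 29, 43 and 36.

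Same-numbered libraries deviated together at -0.101 to 0.235 (Pearson, 15 pairs of groups), so the numbers were not taken to pair them. With the replicate number as a block the counts of calls were 37, 39, 22, 44, 35, 27, 50, 42, 37 and 12, against 35, 39, 23, 43, 36, 25, 48, 38, 38 and 13 without it, in the order of the preceding paragraph, and 0 of the 141 calls was lost.

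Log2 differences of genes at a few CPM were larger on recovered reads: in edgeR ANO2 rose by 5.61 and KCNS3 by 2.66 in scale skin, SCN3A fell there by 4.78, and KCNK17 rose by 3.11 in dorsal skin. Of the 141 calls 8 were lost in edgeR and 5 in DESeq2, both fitted on the 11 libraries without thigh replicate 2, and 8 under quantile normalization. With 2 libraries per group, a difference that was not called may have been beyond what this design detects, and at 13164609 reads 1 read is 0.0736 CPM.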

Other observations

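The remaining marker lists gave these counts. Beside them, 7.77% of all rows were higher and 8.86% lower in scale E9 skin against the feather mean. In dorsal E9 against E7 skin those shares were 12.2% and 7.96%. Nothing is read from counts of 1 or 2 genes for a list. In scale E9 skin against the feather mean, 3 of 8 cartilage genes were higher and none lower, with summed levels of 1293 and 1458 CPM in scale skin against 354 to 673 in the feather libraries. Red blood cell genes had 5 of 7 lower, Schwann cell genes 1 of 5 lower, melanocyte genes 1 of 8 lower, and leukocyte genes 0 of 6 called. Tendon genes had 1 of 4 higher and 1 lower, dermal fibroblast genes 1 of 8 higher and 2 lower, and skeletal muscle genes 1 of 5 lower. Neuron genes had 1 of 8 higher and 3 lower, with a median log2 difference of -0.61. The part of neurons in the SCN3A difference between scale E9 and feather skin was not tested. In dorsal skin with age, 2 of 5 Schwann cell genes were called higher and none lower, with sums of 382 and 418 CPM at E9 against 212 and 228 at E7. The list was mixed, with a median log2 difference of -0.19. Without overlap between the ages, 2 genes were higher and 2 lower.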
